A study of Homo sapiens with 9 samples.

Results

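The genes described here are 40 listed components of the Wnt and beta-catenin pathway, chosen by name with earlier results of these data known. Of these, 37 had at least 1 probe set annotated to that gene alone, 110 probe sets together, out of 54675 probe sets on the array. WNT3 and FZD8 were represented only by probe sets shared with another gene and TCF7 was not analysed here. RNA came from PANC-1, an established human pancreatic adenocarcinoma cell line, and was hybridised to 9 HG-U133 Plus 2.0 arrays of Affymetrix. All cultures received medium with charcoal-filtered serum one day after seeding. They were then exposed for 72 hours to the DMSO vehicle (3 arrays), to 0.1 µM TVB-3166 in DMSO (3 arrays) or to 1.0 µM TVB-3166 in DMSO (3 arrays). TVB-3166 is an inhibitor of fatty acid synthase, the enzyme that makes palmitate. Groups follow the sample titles, because the treatment field of the arrays titled 1.0 µM reads 0.1 µM and the description of 0.1 µM replicate 1 names DMSO alone, and the DMSO strength is given as both 0.05% and 0.5%. Nothing says that replicates were separate cultures, so p-values may measure technical spread alone. A single line of cells in monoculture is a limited model of a tumour.

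In the canonical Wnt pathway, secreted Wnt ligands bind Frizzled receptors and the co-receptors LRP5 and LRP6 at the cell surface, and Dishevelled proteins relay the signal. Without a ligand, a destruction complex built on APC and AXIN lets the kinases casein kinase 1 and GSK3 mark beta-catenin for degradation. With a ligand, beta-catenin builds up and enters the nucleus, where it binds TCF and LEF factors at target genes and displaces Groucho/TLE co-repressors. Wnt ligands carry a palmitoleate group that they need for secretion and receptor binding, so the pathway is linked to fatty acid metabolism at the protein level. Transcript levels, which were measured here, do not report beta-catenin protein or its activity.

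Signals are the deposited MAS5 intensities, in arbitrary units. Changes are differences of log2(signal + 16) between group means, given ± the limma standard error with 3 arrays in each group, and the added 16 shrinks them relative to the ratio of signals, chiefly where signals are low. The threshold for a call was an adjusted p below 0.05 over all 13948 tested genes, each read at its brightest probe set. Of the 37 members, 34 passed the filter on low signals (a mean over the 9 arrays above about 38.95). WNT7A, NKD1 and LEF1 did not. Gene coordinates are those of GRCh38.p14.

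At 1.0 µM against DMSO, 4 Frizzled and LRP receptors, beta-catenin itself and 2 nuclear factors were among the genes that fell, and 3 cytoplasmic regulators rose. Of the 34 tested members, 8 fell, 3 rose and 23 were not called, where the share of all tested genes called was 11.0% lower, 12.3% higher and 23.2% in either direction. The falls were WNT5B, FZD2, FZD4, FZD7, LRP5, CTNNB1, TCF7L1 and TLE3, and the rises DVL2, AXIN1 and CSNK1A1. The median change of the tested members was -0.27, against 0.01 for all tested genes, and 26 members had a negative and 8 a positive change. In 15 members all 1.0 µM arrays lay below all DMSO arrays and in 4 they lay above, against 18.0% and 19.2% of all tested genes (37.2% together). At 0.1 µM against DMSO 5 members fell (WNT7B, FZD3, FZD7, CTNNB1, TLE3), 2 rose (DVL2, AXIN1) and 27 were not called, where the share of all genes called was 5.11% lower, 6.89% higher and 12.0% in either direction. The 0.1 µM arrays all lay below DMSO in 13 members and above in 4, against 14.6% and 15.5% of all genes (30.0% together). Both comparisons use the same DMSO arrays, so they are not independent of each other. Between the doses, 1.0 µM against 0.1 µM, FZD2 and FZD4 were lower and 0 members were higher by limma (1 higher at unadjusted p under 0.05), where 0.430% of all genes were called lower, 0.387% higher and 0.817% in either direction. In 9 members all 1.0 µM arrays lay below the 0.1 µM arrays and in 0 above, against 8.73% and 9.73% of all genes (18.5% together). In a bulk culture, less RNA per cell and fewer cells with the RNA cannot be told apart.

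**Figure D1:**
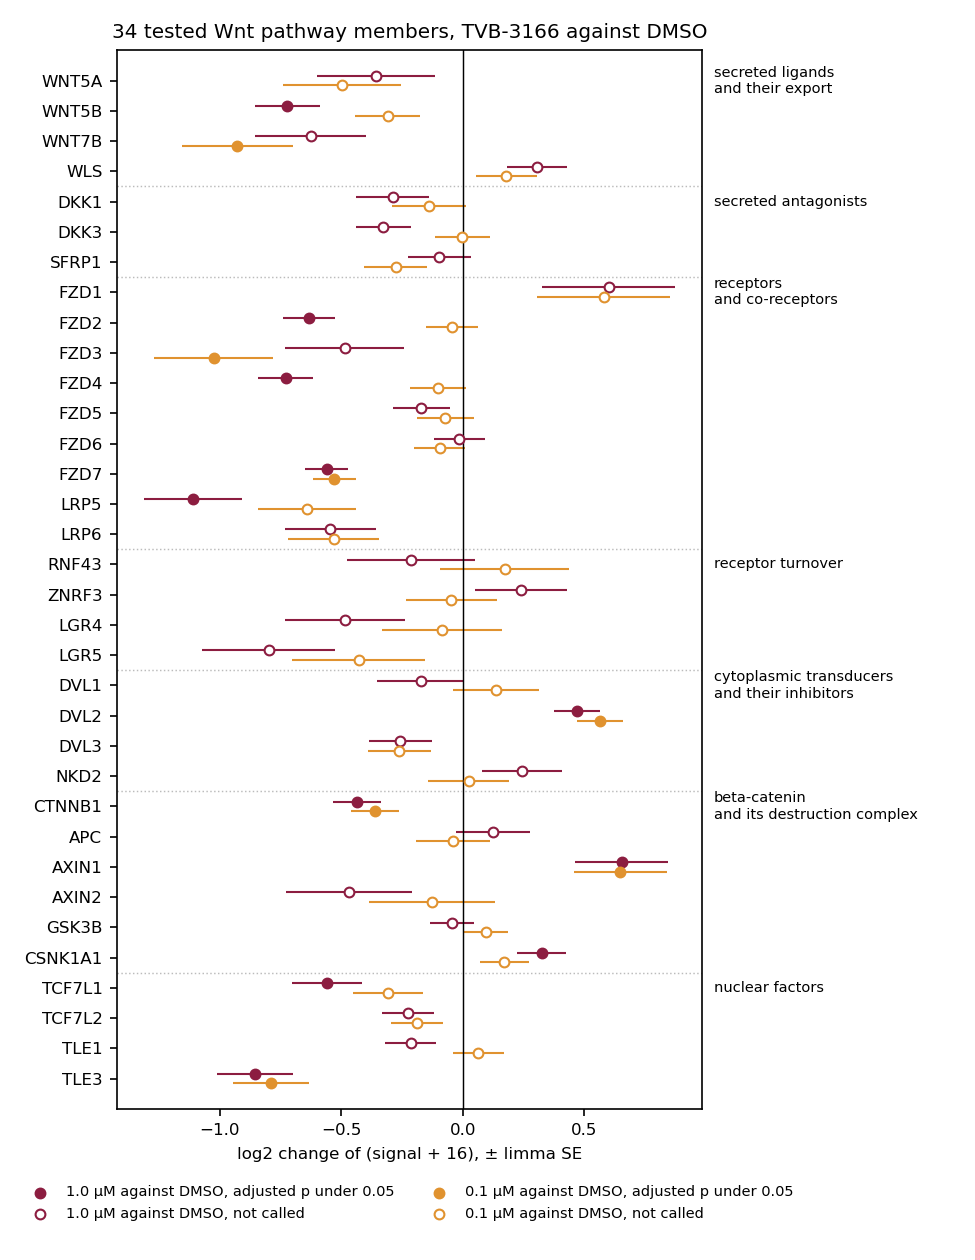
Change of each tested member at 1.0 µM and 0.1 µM TVB-3166 against DMSO, as log2 of (signal + 16) on the horizontal axis with bars for the limma standard error (n = 3 arrays per group). Filled points had an adjusted p under 0.05. Members are ordered by role. Of the 9 tested receptors and co-receptors 4 were called lower at 1.0 µM and 0 higher. Of all tested genes 11.0% were called lower and 12.3% higher.

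Arrays of 1 group correlated across genes at 0.981 to 0.990. The log2 ratio of 3′ to 5′ probe sets, a measure of RNA integrity, ranged from -0.19 to -0.10 in DMSO, from -0.12 to -0.10 at 0.1 µM and from -0.22 to -0.12 at 1.0 µM for GAPDH. The signal of 9 hybridisation spike probe sets parted the arrays at a mean log2 of 11.67 into 4 arrays with more (replicate 2 of DMSO, replicates 1 and 3 at 0.1 µM, replicate 2 at 1.0 µM), called the higher spike set, and 5 with less, called the lower spike set. What the split marks was not tested. The higher set holds 1 array each at 1.0 µM and in DMSO, so its changes between them are given as values with no test. The lower set holds 1 array at 0.1 µM, and where a test sets a lone array against others it is assumed to vary as they do. All 10 markers of PANC-1 identity were above the filter, with summed signals of 76497.4 to 103406.8 in DMSO, 68349.3 to 97723.1 at 0.1 µM and 59512.8 to 84321.1 at 1.0 µM. Among them the keratins KRT8 and KRT19 fell by 0.86 ± 0.15 (adjusted p = 0.00165) and 0.90 ± 0.17 (adjusted p = 0.00258), and KRT7 rose by 1.06 ± 0.12 (adjusted p = 4.29e-05). Of 15 markers of other cell types 13 had a probe set and 5 passed the filter, and their summed signals were 850.0 to 1130.7 in DMSO, 757.0 to 1053.9 at 0.1 µM and 896.1 to 953.5 at 1.0 µM. At 1.0 µM limma called 0 of those 5, and 0 had an unadjusted p under 0.05.

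The 250 bases before the annotated start of transcription are shown for members whose signal was lower (FZD4, TLE3, CTNNB1) or higher (DVL2, AXIN1) under the inhibitor, and for DKK1, the one member whose window held the TCF/LEF letters. RefSeq windows on GRCh38.p14 were matched for 28 of the 40 members. Both strands were searched for CTTTGA (the core bound by TCF and LEF factors), CACGTG (the E-box of MYC, USF and TFE factors), GGGCGG (the GC box of SP factors) and CCAAT (bound by NF-Y). Capitals mark GGGCGG or its complement CCGCCC in FZD4, CTNNB1 and AXIN1, CACGTG in TLE3 and DVL2, and CTTTGA or its complement TCAAAG in DKK1.
FZD4, chr11:86955396-86955645, minus strand: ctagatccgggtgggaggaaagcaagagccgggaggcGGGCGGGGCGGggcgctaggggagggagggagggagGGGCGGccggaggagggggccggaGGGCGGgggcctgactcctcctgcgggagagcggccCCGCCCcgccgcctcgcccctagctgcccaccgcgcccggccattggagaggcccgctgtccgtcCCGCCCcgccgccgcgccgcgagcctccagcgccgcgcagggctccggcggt
TLE3, chr15:70097918-70098167, minus strand: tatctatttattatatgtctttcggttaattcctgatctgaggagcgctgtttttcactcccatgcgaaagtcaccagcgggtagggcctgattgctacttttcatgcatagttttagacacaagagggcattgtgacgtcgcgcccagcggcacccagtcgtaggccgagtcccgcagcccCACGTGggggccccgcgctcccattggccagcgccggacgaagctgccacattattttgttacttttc
CTNNB1, chr3:41199255-41199504, plus strand: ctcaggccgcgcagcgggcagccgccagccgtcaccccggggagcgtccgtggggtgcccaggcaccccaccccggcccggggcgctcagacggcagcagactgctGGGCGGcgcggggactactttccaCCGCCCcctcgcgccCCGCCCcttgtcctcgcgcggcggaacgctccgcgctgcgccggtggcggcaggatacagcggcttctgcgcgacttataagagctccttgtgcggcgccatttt
DVL2, chr17:7234518-7234767, minus strand: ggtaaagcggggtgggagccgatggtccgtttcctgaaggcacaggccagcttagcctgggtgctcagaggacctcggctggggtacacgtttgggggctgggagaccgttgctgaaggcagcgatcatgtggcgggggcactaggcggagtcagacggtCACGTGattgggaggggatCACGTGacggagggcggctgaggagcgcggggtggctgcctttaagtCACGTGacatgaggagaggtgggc
AXIN1, chr16:352724-352973, minus strand: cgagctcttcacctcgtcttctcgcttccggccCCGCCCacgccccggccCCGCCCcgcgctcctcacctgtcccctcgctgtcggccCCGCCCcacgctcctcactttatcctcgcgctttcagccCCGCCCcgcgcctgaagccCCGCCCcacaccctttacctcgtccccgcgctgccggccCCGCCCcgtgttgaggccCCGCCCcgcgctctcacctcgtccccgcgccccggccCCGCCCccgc
DKK1, chr10:52314031-52314280, plus strand: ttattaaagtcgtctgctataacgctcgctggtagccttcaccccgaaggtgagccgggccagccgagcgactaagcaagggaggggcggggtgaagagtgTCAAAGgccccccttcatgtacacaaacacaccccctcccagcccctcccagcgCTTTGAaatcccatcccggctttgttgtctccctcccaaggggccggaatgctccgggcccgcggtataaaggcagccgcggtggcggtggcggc
CTTTGA was in 1 of the 28 member windows and in 11.4% of the 27305 windows of all genes. DKK1 held it 2 times. CACGTG was in 2 of the 28 and in 6.49% of all windows. DVL2 held 3 copies, which begin 90, 71 and 24 bases before the start, and 0.0879% of all windows held 3 or more. GGGCGG was in 22 of the 28 and in 42.3% of all windows. AXIN1 held 8 copies and FZD4 held 6, where 0.619% of all windows held at least 8 and 2.26% at least 6. G and C made up 77.6% of the AXIN1 window, 80.8% of that of FZD4 and 74.4% of that of CTNNB1. The median of all windows was 58.0%, and the GGGCGG counts were not adjusted for this. CCAAT was in 12 of the 28 and in 33.0% of all windows. The start site used in PANC-1 was not measured, and a match is only a run of letters.

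Among the receptors, 4 of 9 fell at 1.0 µM and 5 were not called, where 11.0% of all tested genes were called lower. FZD2 (Entrez gene 2535, chromosome 17, 44557484 to 44561262), a Frizzled receptor of WNT5A and other ligands, had signals of 1608.1, 1814.4 and 1679.2 in DMSO, 1674.4, 1644.5 and 1616.7 at 0.1 µM and 927.7, 1229.4 and 1135.1 at 1.0 µM. All 1.0 µM arrays lay below the other 6, while the 0.1 µM arrays lay within the DMSO range. FZD2 fell by 0.63 ± 0.11 (adjusted p = 0.00123) at 1.0 µM and was at -0.05 ± 0.11 (adjusted p = 0.846) at 0.1 µM against DMSO. FZD4 (Entrez gene 8322, chromosome 11, 86945679 to 86955395), the receptor for norrin and for Wnt ligands, had signals of 491.8, 503.9 and 490.3 in DMSO, 446.5, 471.2 and 463.1 at 0.1 µM and 326.4, 277.9 and 275.3 at 1.0 µM. Here too the 1.0 µM arrays stood apart from the rest. FZD4 fell by 0.73 ± 0.11 (adjusted p = 0.000661) at 1.0 µM and was at -0.10 ± 0.11 (adjusted p = 0.638) at 0.1 µM, where the arrays lay just below those in DMSO. Measured directly between the doses, FZD2 fell by 0.59 ± 0.11 (adjusted p = 0.03) and FZD4 fell by 0.63 ± 0.11 (adjusted p = 0.03) at 1.0 µM against 0.1 µM. The second probe set of FZD2 fell as well at 1.0 µM against DMSO, by 0.36 (adjusted p = 0.0479 over all probe sets), whereas the dimmer one of FZD4 was at -0.33 (adjusted p = 0.506). The dose difference of both receptors rests on 5 of the 6 arrays. FZD2 lost its call on leaving out any 0.1 µM array (adjusted p = 0.157, 0.0957 and 0.0945 for replicates 1, 2 and 3), or replicate 1 (0.119) or 3 (0.126) at 1.0 µM. FZD4 lost it on leaving out the same arrays (adjusted p = 0.13, 0.0965 and 0.0998 for replicates 1, 2 and 3 at 0.1 µM, and 0.0681 and 0.157 for replicates 1 and 3 at 1.0 µM). Within the lower and higher spike sets the dose difference was -0.67 and -0.42 for FZD2 and -0.62 and -0.68 for FZD4, none of them called (adjusted p = 0.313, 0.0749, 0.448 and 0.0632).

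FZD7 (Entrez gene 8324, chromosome 2, 202033855 to 202038441), a Frizzled receptor found in many epithelial tumours, had signals of 1310.5, 1204.5 and 1298.8 in DMSO, 846.6, 912.2 and 868.9 at 0.1 µM and 879.6, 815.9 and 874.6 at 1.0 µM. All 6 treated arrays lay below the DMSO arrays, and the doses overlapped. FZD7 fell by 0.56 ± 0.09 (adjusted p = 0.000743) at 1.0 µM and by 0.53 ± 0.09 (adjusted p = 0.00215) at 0.1 µM, and its other probe set was at -0.23 (adjusted p = 0.15) at 1.0 µM and fell by 0.38 (adjusted p = 0.0393) at 0.1 µM. Within the lower spike set, which holds 1 array at 0.1 µM, the 0.1 µM change of FZD7 was not called (-0.51, adjusted p = 0.116). In FZD2 and FZD4 the signals at 0.1 µM sat near those in DMSO, and in FZD7 they sat near those at 1.0 µM. LRP5 (Entrez gene 4041, chromosome 11, 68298412 to 68449275), a co-receptor for Wnt ligands, had signals of 1112.9, 900.5 and 1890.0 in DMSO, 774.2, 807.4 and 784.0 at 0.1 µM and 547.9, 586.0 and 558.9 at 1.0 µM. No group overlapped another, and DMSO replicate 3 was far above the other DMSO arrays. LRP5 fell by 1.11 ± 0.20 (adjusted p = 0.0018) at 1.0 µM and was at -0.64 ± 0.20 (adjusted p = 0.0614) at 0.1 µM. Its change at 1.0 µM was -1.37 in the lower spike set, which holds DMSO replicate 3 and where it was called (adjusted p = 0.00682), and -0.61 in the higher set. Without DMSO replicate 2 the 0.1 µM value was called as well (-0.87, adjusted p = 0.0128).

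LRP6, the other co-receptor, had signals of 1116.7, 981.7 and 1013.2 in DMSO, 597.7, 883.4 and 681.8 at 0.1 µM and 883.3, 511.1 and 771.4 at 1.0 µM. At this probe set every treated array was below every DMSO array. The changes of -0.55 ± 0.19 (adjusted p = 0.0542) at 1.0 µM and -0.53 ± 0.19 (adjusted p = 0.0924) at 0.1 µM missed the threshold. The dimmer probe sets of LRP6 above the filter overlapped DMSO at both doses. They were at -0.38 and -0.28 at 1.0 µM (adjusted p = 0.415 and 0.476 over all probe sets). At 0.1 µM they were at -0.08 and -0.10 (adjusted p = 0.91 and 0.85). At 1.0 µM the change of LRP6 was called without 0.1 µM replicate 2 (adjusted p = 0.0397) or 1.0 µM replicate 1 (0.0241), and at 0.1 µM without 0.1 µM replicate 2 (0.0423) or 1.0 µM replicate 2 (0.0223). It was called too at 1.0 µM with the spike set as a block (-0.55, adjusted p = 0.00646), and lay at -0.36 within the lower spike set and -0.92 within the higher. FZD3 (Entrez gene 7976), which acts mainly in planar polarity and axon guidance, had signals of 197.4, 179.5 and 223.2 in DMSO, 60.6, 125.5 and 93.2 at 0.1 µM and 106.3, 141.8 and 172.0 at 1.0 µM. Both treated groups lay below DMSO and the 0.1 µM arrays reached lowest. FZD3 fell by 1.03 ± 0.24 (adjusted p = 0.0177) at 0.1 µM and was at -0.49 ± 0.24 (adjusted p = 0.185) at 1.0 µM. The difference between the doses was 0.54 ± 0.24 (adjusted p = 0.401). The dimmer probe sets of FZD3 above the filter were not called at 0.1 µM (-0.64, adjusted p = 0.185, and -0.43, 0.517). At 1.0 µM these were at -0.43 and -0.53. The call of FZD3 at 0.1 µM ended when any of 4 arrays was left out, namely replicate 1 (adjusted p = 0.0533) or 3 (0.0633) of DMSO and replicate 1 (0.0667) or 3 (0.0582) at 0.1 µM, and it was called in neither spike set (-0.68, adjusted p = 0.331, in the lower and -1.10, 0.0651, in the higher). FZD1 was at 0.60 ± 0.27 (adjusted p = 0.141) at 1.0 µM, the one receptor with a positive change, and was called without DMSO replicate 1 (0.89, adjusted p = 0.0307). It lay at 0.36 within the lower spike set and 1.08 within the higher. The dimmer probe set of FZD1 above the filter was at 0.004 (adjusted p = 0.995) at 1.0 µM. FZD5 and FZD6 were at -0.17 ± 0.12 (adjusted p = 0.348) and -0.01 ± 0.11 (adjusted p = 0.949) at 1.0 µM, and the treated and DMSO arrays of both overlapped.

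**Figure D2:**
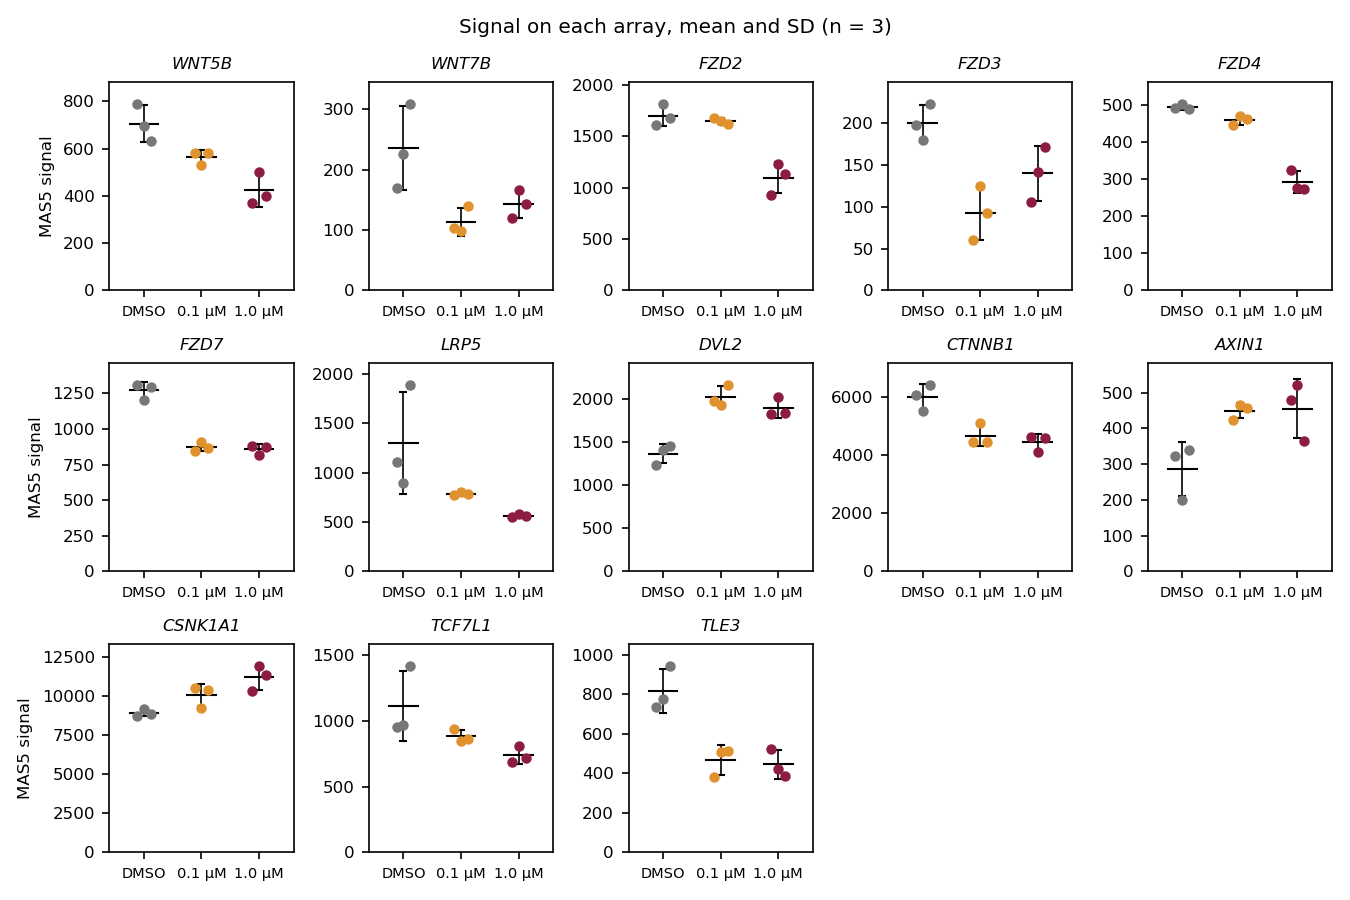
MAS5 signal (vertical axis, arbitrary units, starting at 0) on each array for the 13 members called in any comparison, by group along the horizontal axis. Points are arrays, and black bars are the group mean and SD (n = 3). The 1.0 µM arrays lie below the other 6 in WNT5B, FZD2, FZD4, LRP5 and TCF7L1. Both doses lie below DMSO in WNT5B, WNT7B, FZD3, FZD4, FZD7, LRP5, CTNNB1, TCF7L1 and TLE3. In DVL2, AXIN1 and CSNK1A1 both doses lie above DMSO.

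Of the 4 tested genes for ligands and their export, 1 fell at each dose, WNT5B at 1.0 µM and WNT7B at 0.1 µM. The share of all tested genes called lower was 11.0% at 1.0 µM and 5.11% at 0.1 µM. WNT5B (Entrez gene 81029, chromosome 12, 1617056 to 1647212), a ligand mostly of beta-catenin-independent signalling, had signals of 789.6, 694.3 and 633.2 in DMSO, 581.1, 529.2 and 583.6 at 0.1 µM and 368.4, 501.6 and 399.7 at 1.0 µM. At this probe set the 3 groups did not overlap and followed the dose. WNT5B fell by 0.72 ± 0.13 (adjusted p = 0.00206) at 1.0 µM, was at -0.31 ± 0.13 (adjusted p = 0.169) at 0.1 µM, and its dose difference was -0.41 ± 0.13 (adjusted p = 0.219). Within the spike sets the 1.0 µM change was -0.855 in the lower and -0.46 in the higher. The second probe set of WNT5B above the filter did not follow the dose, with mean signals of 201.9 in DMSO, 137.1 at 0.1 µM and 144.8 at 1.0 µM, and its changes were -0.43 at 1.0 µM (adjusted p = 0.0894) and -0.51 at 0.1 µM (adjusted p = 0.0797). WNT7B (Entrez gene 7477, chromosome 22, 45920366 to 45977162), a ligand that is expressed in pancreatic cancer lines, had signals of 170.5, 226.5 and 309.1 in DMSO, 103.1, 98.3 and 140.5 at 0.1 µM and 120.5, 167.0 and 143.8 at 1.0 µM. All treated arrays were below the DMSO arrays, which spread widely. WNT7B fell by 0.93 ± 0.23 (adjusted p = 0.0202) at 0.1 µM and was at -0.63 ± 0.23 (adjusted p = 0.0671) at 1.0 µM. Its call at 0.1 µM ended on leaving out replicate 2 (adjusted p = 0.0519) or 3 (0.0745) of DMSO, or replicate 1 (0.0694) or 2 (0.0585) at 0.1 µM, and its 1.0 µM change was called without DMSO replicate 1 (-0.82, adjusted p = 0.0301). WNT7B was called at 0.1 µM in neither spike set (adjusted p = 0.18 in the lower and 0.0902 in the higher). The other probe set of WNT7B was at -0.36 at 0.1 µM (adjusted p = 0.54 in place of the brighter one). WNT5A, the best known ligand of the beta-catenin-independent branch, was dim, with signals of 97.6, 72.5 and 87.4 in DMSO, 54.2, 52.5 and 60.9 at 0.1 µM and 80.4, 46.6 and 65.9 at 1.0 µM. It was at -0.36 ± 0.24 (adjusted p = 0.336) at 1.0 µM and -0.50 ± 0.24 (adjusted p = 0.226) at 0.1 µM. WLS, the carrier that takes lipidated Wnt ligands to the cell surface, was at 0.30 ± 0.13 (adjusted p = 0.103) at 1.0 µM, with all 1.0 µM arrays above DMSO, and was called with the spike set as a block (adjusted p = 0.0467). Its other 2 probe sets were at -0.15 and -0.10. WNT7A had 1 probe set, with no array above 52.7.

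None of the 3 secreted antagonists was called at either dose by limma. DKK1, which blocks the LRP co-receptors, had signals of 14759.0, 19212.3 and 17573.7 in DMSO, 16927.7, 12981.2 and 16962.5 at 0.1 µM and 12478.8, 16236.5 and 13487.6 at 1.0 µM, and these groups overlapped. Its change was -0.29 ± 0.15 (adjusted p = 0.203) at 1.0 µM, and it was called only under quantile normalization (-0.28, adjusted p = 0.00156) or with the spike set as a block (-0.29, adjusted p = 0.011) among the 25 alternatives. DKK3, a divergent member of that family, had signals of 5487.0, 5800.8 and 4442.5 in DMSO, 5299.5, 4770.6 and 5566.6 at 0.1 µM and 3985.0, 4347.7 and 4122.3 at 1.0 µM. All 1.0 µM arrays were the lowest of the 9, and the 0.1 µM arrays overlapped those in DMSO. DKK3 was at -0.33 ± 0.11 (adjusted p = 0.0536) at 1.0 µM at its brightest probe set, and 2 of its 4 probe sets above the filter fell (by 0.48, adjusted p = 0.00302, and by 0.42, adjusted p = 0.0464). The brightest one was called as well on leaving out replicate 3 of DMSO (-0.44, adjusted p = 0.0116) or replicate 2 at 0.1 µM (0.0494), and with the spike set as a block (-0.33, adjusted p = 0.0104), and in 9 of the 25 alternatives in all. SFRP1, which binds Wnt ligands outside the cell, was at -0.10 ± 0.13 (adjusted p = 0.661) at 1.0 µM and -0.28 ± 0.13 (adjusted p = 0.203) at 0.1 µM. Its probe sets above the filter ranged from -0.21 to 0.06 at 1.0 µM.

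None of the 4 genes of receptor turnover was called by limma at either dose. LGR5 and LGR4 are receptors of R-spondins, which protect Frizzled proteins from the ubiquitin ligases RNF43 and ZNRF3. LGR5, also a target of beta-catenin, had signals of 86.3, 63.2 and 51.3 in DMSO, 36.4, 41.8 and 57.8 at 0.1 µM and 34.8, 30.4 and 27.9 at 1.0 µM. Every 1.0 µM array was below every other array. The 1.0 µM mean of 31.03 was under the filter level, so LGR5 was tested only through the other arrays and no size is given. LGR4 was at -0.49 ± 0.25 (adjusted p = 0.188) at 1.0 µM. It lay at -0.16 within the lower spike set and -1.14 within the higher, and the 1.0 µM and DMSO arrays overlapped. RNF43 and ZNRF3 were at -0.21 ± 0.26 (adjusted p = 0.629) and 0.24 ± 0.19 (adjusted p = 0.416).

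Of the 3 Dishevelled genes 1 was called at each dose, where 23.2% of all tested genes were called at 1.0 µM and 12.0% at 0.1 µM. DVL2 (Entrez gene 1856, chromosome 17, 7225342 to 7234517), whose promoter window above holds the 3 E-box copies, had signals of 1238.0, 1410.8 and 1450.8 in DMSO, 1981.6, 1932.0 and 2164.1 at 0.1 µM and 1828.0, 2023.9 and 1833.0 at 1.0 µM. All treated arrays lay above the DMSO arrays. DVL2 rose by 0.47 ± 0.09 (adjusted p = 0.00363) at 1.0 µM and by 0.56 ± 0.09 (adjusted p = 0.00214) at 0.1 µM. Its second probe set rose by 0.76 (adjusted p = 0.0227) at 1.0 µM and 0.75 (adjusted p = 0.0429) at 0.1 µM. Within the lower spike set the 0.1 µM change of the brightest one was not called (0.52, adjusted p = 0.124). DVL1 had signals of 1426.3, 1185.4 and 2166.6 in DMSO, 1672.7, 1786.9 and 1633.5 at 0.1 µM and 1187.5, 1525.2 and 1406.7 at 1.0 µM, and was at -0.17 ± 0.18 (adjusted p = 0.552) at 1.0 µM. The sign of DVL1 differed between the lower (-0.44) and the higher (0.36) spike set, and at 0.1 µM it was at 0.02 in the lower and was called in the higher (0.47, adjusted p = 0.0125). DVL3 had signals of 1245.2, 1199.9 and 1732.3 in DMSO, 1078.3, 1175.8 and 1175.4 at 0.1 µM and 1166.1, 1190.5 and 1082.8 at 1.0 µM, and was at -0.26 ± 0.13 (adjusted p = 0.183) at 1.0 µM. Its dimmer probe set was at 0.16 at 1.0 µM and 0.08 at 0.1 µM (adjusted p = 0.778 and 0.916 over all probe sets). At the brightest probe sets of DVL1 and DVL3, DMSO replicate 3 was the highest of the 9 arrays. The same held for the called members WNT7B, FZD3, LRP5, CTNNB1, TCF7L1 and TLE3. In WNT5B, FZD2, FZD4 and FZD7 another DMSO array was the highest. NKD2, an inhibitor that binds Dishevelled, was at 0.24 ± 0.17 (adjusted p = 0.342) at 1.0 µM. NKD1, its relative and a target of the pathway, had 3 probe sets, and none had an array above 58.0.

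CTNNB1 (Entrez gene 1499, chromosome 3, 41199505 to 41240443), which encodes beta-catenin, had signals of 6075.4, 5529.9 and 6413.1 in DMSO, 4462.1, 5095.4 and 4461.1 at 0.1 µM and 4610.4, 4106.9 and 4594.9 at 1.0 µM. All treated arrays lay below all DMSO arrays and the doses overlapped. The mean signal at 1.0 µM was 0.739 times that in DMSO, and at 0.1 µM 0.778 times. CTNNB1 fell by 0.43 ± 0.10 (adjusted p = 0.00741) at 1.0 µM and by 0.36 ± 0.10 (adjusted p = 0.0334) at 0.1 µM, and the doses differed by -0.07 ± 0.10 (adjusted p = 0.834). The 1.0 µM change was -0.44 in the lower spike set and -0.43 in the higher. The 0.1 µM call ended on leaving out replicate 1 (adjusted p = 0.0987) or 3 (0.0981) of DMSO, replicate 1 (0.124) or 3 (0.144) at 0.1 µM, or replicate 3 (0.0551) at 1.0 µM. It also ended after median centring (adjusted p = 0.14), without the variance trend (0.0692) and within the lower (0.226) and higher (0.0549) spike sets. The 2 dimmer probe sets of CTNNB1 were at -0.54 (adjusted p = 0.0576) and -0.13 (adjusted p = 0.703) at 1.0 µM.

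Within the destruction complex, 2 of the other 5 genes rose at 1.0 µM, where 12.3% of all tested genes were called higher. AXIN1 (Entrez gene 8312, chromosome 16, 287440 to 352723), the scaffold that limits assembly of the complex, had signals of 322.2, 200.4 and 339.5 in DMSO, 424.8, 464.8 and 456.8 at 0.1 µM and 480.1, 521.6 and 364.2 at 1.0 µM. All treated arrays were above the DMSO arrays, and DMSO replicate 2 was the lowest of all. AXIN1 rose by 0.65 ± 0.19 (adjusted p = 0.0278) at 1.0 µM and by 0.65 ± 0.19 (adjusted p = 0.0471) at 0.1 µM. The size rests on DMSO replicate 2. Without it the changes were 0.43 (adjusted p = 0.0918) and 0.42 (adjusted p = 0.137). By spike set the 1.0 µM change was 0.33 in the lower (adjusted p = 0.23) and 1.31 in the higher and the 0.1 µM change 0.47 (adjusted p = 0.324) in the lower and 1.08 in the higher. At 1.0 µM the call also ended without 1.0 µM replicate 1 (adjusted p = 0.0846) or 2 (0.0791), after median centring (0.0545), without the variance trend (0.0506) and with only the 6 arrays compared (0.053). At 0.1 µM it ended also without DMSO replicate 1 (adjusted p = 0.0586), without 0.1 µM replicate 1 (0.0938), 2 (0.1) or 3 (0.145) and without 1.0 µM replicate 1 (0.0612), and likewise with no filter (0.0771), after median centring (0.067), with adjustment over all probe sets (0.0574) and without the trend (0.0825). AXIN2, its relative and a feedback target of beta-catenin, was dim, with signals of 77.1, 55.8 and 78.3 in DMSO, 59.1, 77.6 and 52.9 at 0.1 µM and 54.0, 33.7 and 52.5 at 1.0 µM. All its 1.0 µM arrays lay below DMSO, but the change of -0.47 ± 0.26 (adjusted p = 0.23) was not called.

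CSNK1A1 (Entrez gene 1452, chromosome 5, 149492982 to 149551439), the casein kinase that primes beta-catenin for GSK3, had signals of 8741.3, 9144.7 and 8840.5 in DMSO, 10490.2, 9251.8 and 10397.8 at 0.1 µM and 10291.0, 11920.8 and 11330.6 at 1.0 µM. Both treated groups lay above DMSO. CSNK1A1 rose by 0.32 ± 0.10 (adjusted p = 0.035) at 1.0 µM and was at 0.17 ± 0.10 (adjusted p = 0.325) at 0.1 µM. This gene has 12 probe sets above the filter, which ranged from -0.18 to 0.35 at 1.0 µM, and 2 of them rose. The call ended with the mean of its probe sets (0.10, adjusted p = 0.436) and with its brightest probe set free of cross-matching suffixes (0.22, adjusted p = 0.182), and also with no filter (0.0572), after median centring (0.147) and with only the 6 arrays compared (0.054). It ended too on leaving out any DMSO array (adjusted p = 0.104, 0.0682 and 0.0825 for replicates 1, 2 and 3), replicate 3 at 0.1 µM (0.0547), or replicate 2 (0.0735) or 3 (0.113) at 1.0 µM. APC, the tumour suppressor scaffold, was at 0.12 ± 0.15 (adjusted p = 0.627) at 1.0 µM, and 0 of its 5 probe sets were called by limma. GSK3B, the kinase that marks beta-catenin, had signals of 1489.1, 1508.3 and 1524.6 in DMSO, 1551.3, 1543.3 and 1743.3 at 0.1 µM and 1568.5, 1355.5 and 1461.7 at 1.0 µM, and was at -0.05 ± 0.09 (adjusted p = 0.781). One of its 4 probe sets above the filter fell by 0.59 (adjusted p = 0.0426), and the others ranged from -0.11 to 0.26.

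**Figure D3:**
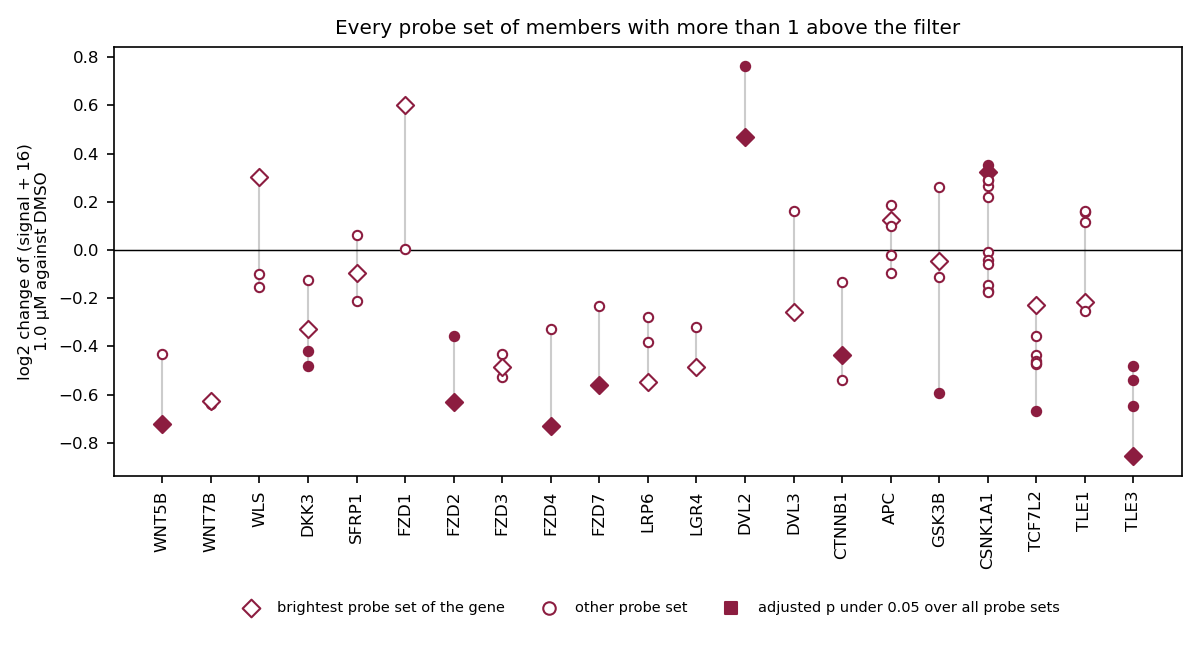
Change at 1.0 µM against DMSO (vertical axis, log2 of signal + 16) of each of 74 probe sets from the 21 members with more than 1 above the filter. Diamonds are the brightest probe set of a gene, circles the others, and filled symbols had an adjusted p under 0.05 over all probe sets. The 4 probe sets of TLE3 ranged from -0.86 to -0.48, and the 4 of GSK3B from -0.59 to 0.26.

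Among the nuclear factors, TLE3 and TCF7L1 fell at 1.0 µM. TLE3 (Entrez gene 7090, chromosome 15, 70047790 to 70097917), a Groucho-type co-repressor that binds TCF factors, had signals of 733.5, 773.6 and 943.5 in DMSO, 380.4, 507.9 and 511.5 at 0.1 µM and 524.9, 421.8 and 388.1 at 1.0 µM. Every treated array was below every DMSO array. TLE3 fell by 0.86 ± 0.16 (adjusted p = 0.00186) at 1.0 µM and by 0.79 ± 0.16 (adjusted p = 0.006) at 0.1 µM, and the difference between the doses was -0.07 ± 0.16 (adjusted p = 0.914). All 4 of its probe sets fell at 1.0 µM, by 0.48 to 0.86, and 2 of the 4 fell at 0.1 µM. Within the lower spike set the 0.1 µM change was -0.70 (adjusted p = 0.2). TLE1, a co-repressor of the same family, was at -0.22 ± 0.11 (adjusted p = 0.178) at 1.0 µM and 0.06 ± 0.11 (adjusted p = 0.772) at 0.1 µM. Its 5 probe sets ranged from -0.25 to 0.16 at 1.0 µM.

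TCF7L1 (Entrez gene 83439, chromosome 2, 85133392 to 85310387), the member of the TCF family that acts mostly as a repressor, had signals of 951.5, 973.5 and 1419.6 in DMSO, 942.4, 845.8 and 859.9 at 0.1 µM and 690.1, 812.5 and 718.3 at 1.0 µM. The groups did not overlap, though DMSO replicate 3 stood above the rest. TCF7L1 fell by 0.56 ± 0.14 (adjusted p = 0.0147) at 1.0 µM and was at -0.31 ± 0.14 (adjusted p = 0.207) at 0.1 µM. The call at 1.0 µM ended without 1.0 µM replicate 1 (adjusted p = 0.0548) or 3 (0.0504), and the change was -0.71 in the lower spike set and -0.26 in the higher. TCF7L2, the main TCF factor of epithelial cells, had signals of 7287.2, 7684.2 and 6376.5 in DMSO, 5880.9, 6635.8 and 6182.8 at 0.1 µM and 6372.9, 5454.7 and 6397.1 at 1.0 µM. At this probe set TCF7L2 was at -0.23 ± 0.11 (adjusted p = 0.155), while 2 of its 7 probe sets fell (by 0.67, adjusted p = 0.00307, and by 0.47, adjusted p = 0.044) and the range over all 7 was -0.67 to -0.23. In both that fell, DMSO replicate 3 was the highest array, at 2072.8 and 2913.0. The mean of the 7 gave -0.44 (adjusted p = 0.0171), and the brightest one lay at -0.09 within the lower spike set and -0.49 within the higher. LEF1, a factor that is often switched on with the pathway, had 3 probe sets, all under the filter, with no array above 29.8.

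Lists of other pathway genes were written from general knowledge to set the members beside. Their counts at 1.0 µM are read against 23.2% of all genes called. Of 19 other receptors and secreted antagonists 8 were tested, of which 2 rose and 2 fell (median -0.44). ROR1, a receptor of WNT5A, rose by 0.81 ± 0.16 (adjusted p = 0.003), with mean signals of 1111 at 1.0 µM and 626.3 in DMSO, and FZD9 rose by 0.75 ± 0.20 (adjusted p = 0.0163). PTK7, a co-receptor of planar polarity, fell by 1.08 ± 0.13 (adjusted p = 0.000111), and KREMEN2, which acts with DKK1, fell by 0.72 ± 0.23 (adjusted p = 0.0371). Of 20 other ligand genes and their makers 9 were tested, with 1 rise and 1 fall (median 0.14). WNT4 was the gene called higher, with signals of 10.5, 4.7 and 57.5 in DMSO, 70.8, 75.5 and 124.4 at 0.1 µM and 100.2, 158.8 and 119.2 at 1.0 µM. Its DMSO mean of 24.23 was under the filter level, so it was tested only through the treated arrays and no size is given. WNT9A fell by 0.84 ± 0.16 (adjusted p = 0.00236).

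Among 25 tested regulators of beta-catenin turnover 2 rose and 2 fell (median -0.05). SIAH1, a ubiquitin ligase that can degrade beta-catenin without GSK3, rose by 0.90 ± 0.08 (adjusted p = 1.08e-05), and the linker MACF1 rose by 0.48 ± 0.11 (adjusted p = 0.00639). FRAT1 and FRAT2, which bind GSK3, fell by 0.48 ± 0.12 (adjusted p = 0.0149) and 0.43 ± 0.13 (adjusted p = 0.0305). Among 25 tested nuclear partners 1 rose and 6 fell (median -0.14). CTNNBIP1, which keeps beta-catenin from binding TCF factors, fell by 1.23 ± 0.14 (adjusted p = 7.81e-05), and the co-repressor TLE2 fell by 0.73 ± 0.15 (adjusted p = 0.00477). NLK, a kinase of TCF factors, and the deacetylase HDAC1 fell by 0.28 and 0.35 (adjusted p = 0.0239 and 0.0361). TBL1X, a co-factor of nuclear beta-catenin, rose by 0.88 ± 0.11 (adjusted p = 9.48e-05). In the planar polarity and calcium branch 4 of 24 rose and 1 fell (median 0.04). DAAM1, a formin, rose by 0.60 ± 0.10 (adjusted p = 0.00139), and NFATC1, a calcium-regulated factor, rose by 0.69 ± 0.13 (adjusted p = 0.00261), while VANGL1, a core polarity protein, fell by 0.75 ± 0.12 (adjusted p = 0.000733).

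Target genes of the pathway went both ways, with 6 rises and 6 falls in 29 tested genes (41.4% called, median -0.06). PLAUR, the urokinase receptor gene, rose by 0.86 ± 0.18 (adjusted p = 0.00402) and CCN2, a matricellular protein gene, rose by 0.64 ± 0.11 (adjusted p = 0.00126). VEGFA and FOSL1 rose by 0.61 and 1.63 (adjusted p = 0.000837 and 8.66e-05). EDN1, for endothelin, fell by 1.49 ± 0.14 (adjusted p = 1.10e-05), ETS2 fell by 0.95 ± 0.09 (adjusted p = 1.26e-05) and CCND1, for cyclin D1, fell by 0.34 ± 0.09 (adjusted p = 0.013). BIRC5, for survivin, fell by 1.43 ± 0.12 (adjusted p = 7.23e-06). Many of these genes answer to other pathways as well, and BIRC5 follows the cell cycle. Of the 10 tested adhesion partners of beta-catenin 3 fell and 0 rose by limma (1 higher and 4 lower at unadjusted p under 0.05), with a median of -0.24. CDH3, P-cadherin, fell by 2.39 ± 0.19 (adjusted p = 3.55e-06), with mean signals of 1222 in DMSO, 637.9 at 0.1 µM and 221.8 at 1.0 µM. It was the one gene of these lists called between the doses, where it fell by 1.43 ± 0.19 (adjusted p = 0.00556). JUP, gamma-catenin, fell by 0.56 ± 0.14 (adjusted p = 0.0141) and NECTIN2 fell by 0.57 ± 0.12 (adjusted p = 0.00472).

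**Figure D4:**
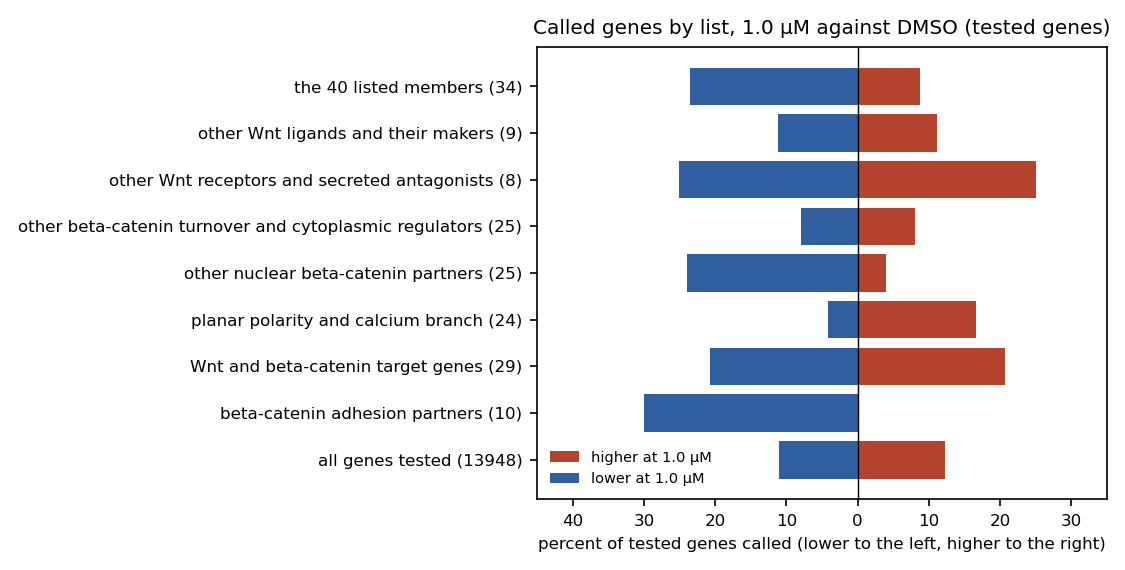
Percent of tested genes called lower (left) and higher (right) at 1.0 µM against DMSO in each list, with the number tested in brackets and all 13948 tested genes in the last row. The listed members had 8 of 34 lower and 3 of 34 higher, and the target genes 6 of 29 each way.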

How the data were processed

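RNA of 9 PANC-1 samples was hybridised to HG-U133 Plus 2.0 arrays, in 3 groups of 3 set by the sample titles. The deposited intensity of each probe set is a MAS5 signal, per the submitters' processing notes, scaled to a trimmed mean of 500.1 on every array. Arrays carry no counts, and their number limits the precision. Signals were taken as log2(signal + 16) with no further normalization and fitted over all 9 arrays in limma 3.58.1 (R 4.3.3) by lmFit and eBayes with a variance trend. Probe sets annotated to 1 gene were kept where their mean level exceeded the 40th percentile, the brightest one stood for the gene, and p-values were adjusted by Benjamini-Hochberg over 13948 genes. Probe sets were also adjusted over all that passed the filter, and those values are given where a second probe set is named. Of 54675 probe sets 41091 named 1 gene, 1801 named several and 11721 named none, beside 62 controls, and 41043 were matched to RefSeq by Entrez identifier. Tested on simulated data for 1.0 µM against DMSO over 13948 genes, the fit called 23% of 100 genes changed by 0.5 and 67% of 100 changed by 1 (log2). No other genes were changed there, and 92 were called, against 3240 in the data. With fewer changed genes the adjustment is stricter, so these rates do not carry over to the real comparison. Array values are given for CTNNB1 and every called member and for some others chosen after their values were seen. From each further list up to 4 called genes in each direction are named by the smallest p at 1.0 µM. Members and lists were chosen with earlier results of these data known.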

Additional observations from a re-analysis of the deposited data

Results flagged for a closer look

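WNT3, a ligand of the canonical branch, was not among the tested members because its probe sets are also annotated to the uncharacterised locus LOC101929777, and a signal in them cannot be assigned to either. One of these shared probe sets had a mean signal of 133 ± 19.4 in DMSO, 264 ± 45.1 at 0.1 µM and 327 ± 117 at 1.0 µM (SD, n = 3 each). This probe set and the next were picked because all their 1.0 µM arrays lay above all DMSO arrays. That separation was thus fixed by the choice, and no p-value is given. All 6 treated arrays of this one lay above the DMSO arrays. The differences were 1.15 ± 0.25 at 1.0 µM and 0.91 ± 0.25 at 0.1 µM, which share the DMSO arrays. Shared probe sets of FZD8 above the filter were not picked, and were at 0.04 and -0.12 at 1.0 µM. Another shared probe set of WNT3 had signals of 39.5, 11.5 and 34.1 in DMSO. They were 58.1, 46.8 and 39.2 at 0.1 µM and 67.0, 84.2 and 58.9 at 1.0 µM, where the mean was 70.0. Its DMSO mean of 28.4 was under the filter level, so it was tested only through the treated arrays and no size is given. These values come from data outside the comparisons above.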

How the results depend on the processing

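With 1.0 µM against DMSO, 9 to 15 members were called over the 25 alternatives. Of the 11 called members 7 (FZD2, FZD4, FZD7, LRP5, DVL2, CTNNB1, TLE3) were called in each. One alternative, the higher spike set alone, compares 1 array with 1, so a call kept or lost there is no test. WNT5B lost its call in that alternative only. All 11, 7 and 2 called members of the 3 comparisons kept their sign. At 0.1 µM against DMSO 7 members were called, but 0 in the lower spike set alone (limma, 8 at unadjusted p under 0.05) and 3 to 8 when 1 array was left out. Between the doses the count of 2 became 1 with no filter, median centring, the mean of probe sets, adjustment over all probe sets or the higher spike set alone, 0 without the trend (limma, 6 at unadjusted p under 0.05), with only the 6 arrays compared (8), with the replicate block (7) or in the lower spike set alone (3), and 0 to 2 when 1 array was left out. Arrays with the same replicate number deviated from their group means with correlations of -0.338 to 0.217, and those with different numbers with -0.265 to 0.273. These correlations showed no pairing by number, but they cannot exclude it. The replicate block gave 9, 5 and 0 called members. Calls were lost of AXIN1 (adjusted p = 0.0561) and CSNK1A1 (0.102) at 1.0 µM and of CTNNB1 (0.0942) and AXIN1 (0.0942) at 0.1 µM. Between the doses those of FZD2 (0.0729) and FZD4 (0.113) were lost. The count over all genes at 0.1 µM was 1674, and 324 in the lower spike set, 1092 without DMSO replicate 1 and 1054 and 843 without 0.1 µM replicates 1 and 3. Between the doses it was 114, and 67 with no filter, 173 after quantile normalization, 51 after median centring, 66 over all probe sets, 23 without the trend and with the replicate block, 65 with 6 arrays, 256 with the spike set as a block, 1 in the lower spike set, 304 in the higher, and 11 to 186 with 1 array left out. The spike sets were chosen after seeing the data. The cause of these changes was not tested.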
